A study of Mus musculus with 32 samples.

Results

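Tcf7, Lef1 and Axin2 are the genes for the transcription factors TCF1 and LEF1 and for AXIN2, a scaffold protein of the Wnt pathway. They were chosen by gene symbol, and all 3 were present in both deposited tables, the E15.5 table with 19404 genes and the E19.5 table with 26244. The tables hold bulk RNA-seq of embryonic thymus cells separated by flow sorting, from mice whose strain is labelled 5x polychromILC, at embryonic day E15.5 or E19.5, with no treatment given. Most populations were CD4- and CD8-negative thymocytes of the earliest stage, DN1, divided by the presence of BCL11b and ID2 into BCL11b-ID2-, BCL11b-ID2+, BCL11b+ID2- and BCL11b+ID2+ gates. A further DN1 gate, low for both (BCL11blowID2low), was sorted at E19.5 only, and DN2 cells, by name the next stage, were sorted at both stages. Each gate had 3 libraries, except DN2 at E15.5 with 2, so E15.5 held 14 libraries and E19.5 held 18. All groups share the strain, and a full list of its reporter alleles was not found among the labels. Nothing in the labels ties the libraries of a gate to different animals. The tests therefore speak of library-to-library spread, part of which may be technical. At E15.5 the columns carry numbers only, and a library's gate rests on the match of that number with the barcode number in its labels.

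In canonical Wnt signalling, a ligand bound to Frizzled and LRP receptors stops the destruction complex, of which AXIN proteins are the scaffold, from degrading beta-catenin. Beta-catenin then binds TCF/LEF factors on DNA and switches on target genes, among them Axin2, whose product feeds back to dampen the signal. In the thymus, TCF1 is induced by Notch signals in early progenitors and is needed for T-cell specification, LEF1 acts beside it in later thymocytes, and TCF1 also serves early innate lymphoid precursors, so a TCF1 transcript alone does not mark one lineage. BCL11b is the factor of T-lineage commitment, and ID2 blocks E proteins and marks innate lymphoid cells (ILCs).

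On GRCm38, Tcf7 (ENSMUSG00000000782) lies on the minus strand of chromosome 11 from 52252371 to 52283014, Lef1 (ENSMUSG00000027985) on the plus strand of chromosome 3 from 131110471 to 131224356, and Axin2 (ENSMUSG00000000142) on the plus strand of chromosome 11 from 108920349 to 108950783. All 3 are protein-coding genes in the GENCODE annotation, and the tables give 1 value per gene, so isoforms and start sites are not separated. The RefSeq table of GRCm38.p6 gave 7 promoter windows for these genes, 2 for Tcf7, 4 for Lef1 and 1 for Axin2. They were searched on both strands for the TCF/LEF words AACAAAG and ATCAAAG and TACAAAG and TTCAAAG, which 16.9% of all 32851 windows of the same length held. The words were found in 1 of the 7, at a start inside Lef1 (chr3:131156044-131156343, plus strand), where TACAAAG begins 147 bases before the start site. The Axin2 window (chr11:108920099-108920398, plus strand) held none of these letters. Both sequences are given because Axin2 is the pathway's target among these genes and Lef1 the one with a matching word, with the word in capitals. A match is not a measured binding site, and none of the data here measure binding.
Lef1, inner start: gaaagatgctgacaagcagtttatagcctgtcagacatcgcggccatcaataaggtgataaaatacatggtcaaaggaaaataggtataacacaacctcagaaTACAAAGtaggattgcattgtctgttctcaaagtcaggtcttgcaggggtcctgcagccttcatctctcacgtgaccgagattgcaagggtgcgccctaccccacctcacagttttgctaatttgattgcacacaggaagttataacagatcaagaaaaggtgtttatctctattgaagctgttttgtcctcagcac
Axin2: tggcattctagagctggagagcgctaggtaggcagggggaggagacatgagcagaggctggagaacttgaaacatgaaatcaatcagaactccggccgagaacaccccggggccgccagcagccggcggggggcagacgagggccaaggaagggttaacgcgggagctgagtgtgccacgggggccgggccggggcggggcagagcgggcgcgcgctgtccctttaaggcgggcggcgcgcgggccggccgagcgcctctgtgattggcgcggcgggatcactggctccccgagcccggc

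An E15.5 library held 12030749 to 20709387 recovered reads, 52.8 to 81.6% of them from mitochondrial genes. An E19.5 library held 2599470 to 9498133, with 29.9 to 60.2% mitochondrial. The deeper E15.5 libraries detected fewer genes, 8277 to 12954 against 14387 to 18879. At E19.5 Id2 followed the gates, at 961 or more in every library of the ID2+ gates and at most 32.1 in those of the ID2- gates. Bcl11b was 2.89 to 39.2 in the BCL11b- gates and 1469 to 2076 in BCL11b+ID2-, but BCL11b+ID2+ libraries (409, 539 and 596) overlapped those of BCL11blowID2low (476, 491 and 376). At E15.5 library 1 of the BCL11b+ID2+ gate stood apart, with 85.0 normalised counts of Id2 against 284 and 2771 in its fellows. In the same library Lef1 was 3.0 and Axin2 was 1.0, so E15.5 results on that gate are also given without it. The members' own values were part of that choice, so the results without it are a description. Other E15.5 libraries also departed from their fellows. Bcl11b was 509 in library 1 of BCL11b-ID2+, against 7.0 and 56.1, with 927 or more in the BCL11b+ gates. Id2 was 126 in library 1 of BCL11b-ID2-, above that 85.0, against 38.9 and 17.5. The stages were normalised in separate tables, and no test was run across them. All levels below are normalised counts, and libraries keep the numbers of the labels, which are 1, 2 and 4 at E19.5.

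At E19.5, Tcf7 and Lef1 were both highest in the BCL11b+ID2- gate and differed in DN2, where Tcf7 did not differ beyond the spread and Lef1 was 32.0-fold lower. Axin2, like Lef1, was low in DN2 and in BCL11b-ID2- cells, where its libraries lay below all others. Its mean was highest in the BCL11b+ID2+ gate, but the libraries there overlapped those of BCL11b+ID2- (adjusted p = 0.814 in limma). A test for any difference among the gates (moderated F-test in limma, Benjamini-Hochberg adjustment over all genes tested) passed its threshold of 0.05 for 3 of 3 genes, as it did for 32.9% of the 13840 genes tested. The adjusted p was 3.31e-08 for Tcf7, 3.64e-08 for Lef1 and 1.09e-05 for Axin2. In bulk samples, fewer cells that carry a transcript and less of it per cell cannot be told apart.

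**Figure D1:**
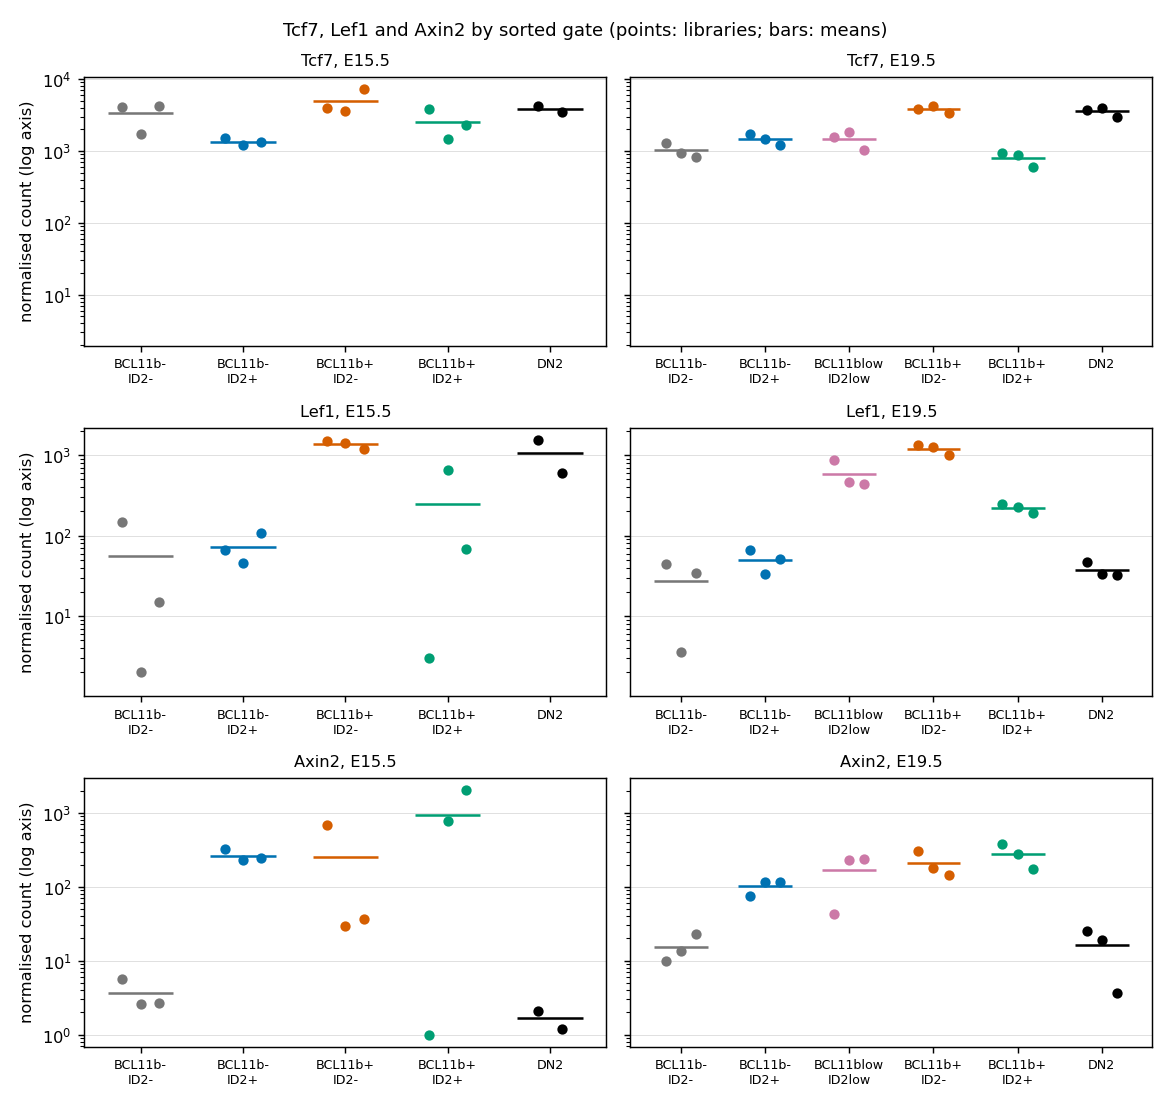
Normalised counts (log axis) of Tcf7, Lef1 and Axin2 in each library at E15.5 (left) and E19.5 (right), by sorted gate; points are libraries and bars are arithmetic means. At E19.5 Tcf7 is highest in BCL11b+ID2- and DN2 cells, Lef1 in BCL11b+ID2- cells but not DN2, and Axin2 is low in BCL11b-ID2- and DN2 cells; at E15.5 the libraries of a gate spread more widely.

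Tcf7 was detected in every E19.5 library at 603 or more. In the BCL11b+ID2- gate its libraries held 3809, 4188 and 3342, and in DN2 3751, 3897 and 2949.8. The BCL11blowID2low libraries held 1584, 1820.4 and 1023, and the BCL11b-ID2+ libraries 1738, 1443 and 1220.0. BCL11b-ID2- held 1281, 939.7 and 829.8, and BCL11b+ID2+ 936.5, 884 and 603. The BCL11b+ID2- and DN2 libraries overlapped each other and lay above all 12 others. From the BCL11blowID2low gate (mean 1476 ± 409.7, SD, n = 3) through BCL11b-ID2+ (1467 ± 259.9) and BCL11b-ID2- (1017 ± 235) to BCL11b+ID2+ (808 ± 179), each gate overlapped the next.

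Lef1 had a wider range. Its libraries held 1333, 1252 and 998 in the BCL11b+ID2- gate, 863, 463 and 437 in BCL11blowID2low, and 249, 226 and 189 in BCL11b+ID2+. These 3 gates fell in that order with no overlap between neighbours. DN2 libraries held 46.6, 33.3 and 32.0, BCL11b-ID2+ libraries 66.5, 33.0 and 50.8, and BCL11b-ID2- libraries 43.9, 3.6 and 34.6. The last 3 gates overlapped one another and lay below every library of the other 3.

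Axin2 libraries held 377, 275 and 173 in the BCL11b+ID2+ gate, 302.0, 182 and 144 in BCL11b+ID2-, and 43.2, 234 and 237 in BCL11blowID2low. BCL11b-ID2+ libraries held 76.0, 118 and 115. These 4 gates formed a run in which each overlapped the next, library 1 of BCL11blowID2low being the lowest of the 12. DN2 held 25.4, 19.3 and 3.6 and BCL11b-ID2- held 9.8, 13.7 and 23.0, and all 6 of these lay below the other gates.

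The comparison of ID2+ with ID2- cells among BCL11b+ cells at E19.5 asks which transcripts go with ID2 once BCL11b is on. Bcl11b itself was lower in the ID2+ gate, at 515 ± 95.7 against 1674 ± 348 (log2 difference -1.70 ± 0.50, adjusted p = 0.0349 in limma), so these gates differ in both sorted factors. Tcf7 fell from 3779.5 ± 424 to 808 ± 179, 4.68-fold (log2 difference -2.24 ± 0.22 SE, adjusted p = 3.17e-07 in limma). Lef1 fell from 1194 ± 175 to 221 ± 30.6, 5.40-fold (log2 difference -2.43 ± 0.56, adjusted p = 0.00622). Axin2 overlapped between the gates, at 275 ± 102 against 209 ± 82.5, with a log2 difference of 0.39 (95% interval -0.93 to 1.72, adjusted p = 0.814). So 2 of 3 genes passed in this comparison, against 8.73% of all genes tested. The BCL11b+ID2+ libraries were also the ones with the highest ILC2 markers, which summed to 6687 to 6958 over 8 genes against 1478 to 1711 in BCL11b+ID2-, where Klrg1 and Il5 were at 0. NK cell and ILC1 markers summed to 844 to 1485 against 4779.9 to 6018 over 8 genes, and macrophage and monocyte markers to 423 to 1214 against 12.1 to 42.8, with Elane at 0 in both gates. Markers of later alpha-beta thymocytes were lower in BCL11b+ID2+, 232 to 417 against 1059.5 to 1520.2 over 5 genes. The part of such cells in the differences of Tcf7 and Lef1 was not tested.

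Among BCL11b- cells at E19.5, the ID2+ gate differed from the ID2- gate in Axin2. Axin2 rose from 15.52 ± 6.82 to 103 ± 23.1, 6.62-fold (log2 difference 2.70 ± 0.64, adjusted p = 0.00451 in limma). Tcf7 (1017 against 1467, log2 difference 0.54, 95% interval 0.09 to 0.99, adjusted p = 0.102) and Lef1 (27.4 against 50.1, log2 difference 1.34, interval 0.18 to 2.49, adjusted p = 0.113) overlapped between the gates and did not pass in limma. Both passed without library 1 of BCL11b-ID2- (0.72 and 1.94, adjusted p = 0.0485 and 0.0258 in limma). The Lef1 difference was 0.30 without library 2 of that gate (adjusted p = 0.717), and the Tcf7 difference was 0.40 without its library 4 (adjusted p = 0.337). With the replicate number as a block in the fit, Tcf7 passed (0.54, adjusted p = 0.00814 in limma) and Lef1 did not. With all libraries and no block, 1 of 3 genes passed, where 15.9% of all genes did. NK cell and ILC1 markers summed to 18002 to 22365 over 8 genes in the BCL11b-ID2+ gate and to 179 to 306 in BCL11b-ID2-. Macrophage and monocyte markers summed to 47.6 to 92.7 and to 2125 to 3169.8 over 8 genes, with Elane at 0 in the BCL11b-ID2+ gate, and the part of either list in the Axin2 difference was not tested.

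The ID2 difference was not the same in BCL11b+ and BCL11b- cells for Tcf7 and Lef1. The interaction, the ID2 difference among BCL11b+ cells minus that among BCL11b- cells, was -2.78 ± 0.31 (log2) for Tcf7, with adjusted p = 2.92e-06 in limma. For Lef1 it was -3.76 ± 0.79, with adjusted p = 0.00326. Without library 2 of BCL11b-ID2- the Lef1 interaction still passed and was -2.73, with 0.30 as its part among BCL11b- cells. For Axin2 it was -2.31 (95% interval -4.19 to -0.43) with adjusted p = 0.122, and did not pass. The interaction passed for 2 of 3 genes, against 9.28% of all genes.

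The comparison of BCL11b+ with BCL11b- cells asks which transcripts accompany BCL11b. Among ID2- cells at E19.5 all 3 genes rose, in a comparison that 14.9% of all genes passed. Lef1 rose from 27.4 ± 21.1 to 1194 ± 175, 43.6-fold (log2 difference 5.93 ± 0.56, adjusted p = 8.41e-08 in limma). Axin2 rose from 15.52 ± 6.82 to 209 ± 82.5, 13.5-fold (log2 difference 3.68 ± 0.64, adjusted p = 0.000272). Tcf7 rose 3.72-fold (log2 difference 1.91 ± 0.22, adjusted p = 1.37e-06). No single left-out library ended any of these 3 calls, and the Lef1 difference was 4.89 without library 2 of BCL11b-ID2-. Macrophage and monocyte markers summed to 12.1 to 42.8 in the BCL11b+ gate and 2125 to 3169.8 in the BCL11b- gate, and NK cell and ILC1 markers to 4779.9 to 6018 and 179 to 306. Their part in the rises was not tested.

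Among ID2+ cells at E19.5, Lef1 and Tcf7 moved in opposite directions. Lef1 rose from 50.1 ± 16.7 to 221 ± 30.6, 4.42-fold (log2 difference 2.17 ± 0.56, adjusted p = 0.0183 in limma), and Tcf7 fell from 1467 ± 259.9 to 808 ± 179, 1.82-fold (log2 difference -0.87 ± 0.22, adjusted p = 0.015). Axin2, at 275 against 103, did not overlap between the gates but did not pass (log2 difference 1.37, 95% interval 0.04 to 2.70, adjusted p = 0.303). Here 2 of 3 genes passed and 6.03% of all genes did. Both calls were narrow. The Tcf7 difference no longer passed without library 1 or 2 of BCL11b-ID2+ (log2 differences -0.74 and -0.87, adjusted p = 0.0995 and 0.0547 in limma) or library 4 of BCL11b+ID2+ (-0.67, adjusted p = 0.125). The Lef1 difference no longer passed without library 2 or 4 of BCL11b-ID2+ (1.90 and 2.204, adjusted p = 0.112 and 0.0548 in limma) or library 1 or 2 of BCL11b+ID2+ (2.08 and 2.15, adjusted p = 0.074 and 0.0631). NK cell and ILC1 markers summed to 18002 to 22365 in the BCL11b-ID2+ gate and to 844 to 1485 in BCL11b+ID2+. ILC2 markers summed to 725 to 783, with Il5 at 0, and to 6687 to 6958, and macrophage and monocyte markers to 47.6 to 92.7 and to 423 to 1214, with Elane at 0 in both gates. The part of such cells in these differences was not tested.

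DN2 cells were set against the BCL11b+ID2- gate, the DN1 gate with BCL11b and without ID2. Tcf7 did not differ beyond the spread (3532.7 ± 510.0 against 3779.5 ± 424, log2 difference -0.10, 95% interval -0.55 to 0.35, adjusted p = 0.817 in limma). Lef1 fell from 1194 ± 175 to 37.3 ± 8.11, 32.0-fold (log2 difference -4.97 ± 0.56, adjusted p = 1.08e-06). Axin2 fell from 209 ± 82.5 to 16.1 ± 11.2, 12.98-fold (log2 difference -3.89 ± 0.64, adjusted p = 0.000158). These are 2 of 3 genes, in a comparison that 16.2% of all genes passed. Without library 4 of DN2 the Tcf7 difference was 0.02 and the Axin2 difference, which still passed, -3.11. NK cell and ILC1 markers summed to 906 to 1840.1 in DN2, with Ncr1 and Prf1 at 0, against 4779.9 to 6018 in the BCL11b+ID2- gate, and their part was not tested. At E15.5 the picture for Lef1 was another one, since DN2 libraries held 1547 and 597 beside 1502, 1399 and 1184 in BCL11b+ID2- cells, with a log2 difference of -0.50 (95% interval -4.59 to 3.60, and 0.19 without library 2 of DN2). Whether the DN2 difference in Lef1 changed between the stages was not tested.

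The BCL11blowID2low gate lay between the others for Lef1. Against BCL11b-ID2- cells, Lef1 was 21.5-fold higher (log2 difference 4.85 ± 0.56, adjusted p = 1.69e-06 in limma) and Axin2 higher, at 171 ± 111 against 15.52 ± 6.82 (log2 difference 3.11 ± 0.64, adjusted p = 0.00151), while Tcf7 did not pass (0.52, 95% interval 0.07 to 0.97, adjusted p = 0.126, and 0.76 with 0.0219 without library 4 of BCL11blowID2low). That comparison was passed by 2 of 3 genes and by 14% of all genes. The Lef1 difference was 3.81 without library 2 of BCL11b-ID2-, and the Axin2 difference 3.92 without library 1 of BCL11blowID2low. With the replicate number as a block in the fit, Tcf7 passed as well (0.52, adjusted p = 0.0118 in limma). Macrophage and monocyte markers summed to 190.1 to 372 in BCL11blowID2low, with Elane at 0, and to 2125 to 3169.8 in BCL11b-ID2-, and NK cell and ILC1 markers to 1663 to 2271, with Ncr1 at 0, and to 179 to 306. Their part was not tested. Against BCL11b+ID2- cells, Tcf7 alone passed, 2.56-fold lower (log2 difference -1.39 ± 0.22, adjusted p = 0.000354), where 6.91% of all genes passed. Lef1 was at 588 ± 239 against 1194 ± 175 and did not pass there (log2 difference -1.08, 95% interval -2.24 to 0.07, adjusted p = 0.264), although the libraries did not overlap. Axin2 did not pass either (-0.57, 95% interval -1.90 to 0.76), and its difference was 0.24 without library 1 of BCL11blowID2low.

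Against BCL11b+ID2+ cells, the BCL11blowID2low gate had 1.83-fold more Tcf7 (log2 difference 0.85 ± 0.22, adjusted p = 0.0239 in limma), the only 1 of the 3 genes to pass where 4.43% of all genes did. The call ended without library 1 or 2 of BCL11blowID2low (log2 differences 0.78 and 0.68, adjusted p = 0.0797 and 0.142 in limma) or library 4 of BCL11b+ID2+ (0.66, adjusted p = 0.163), and when only these gates entered the fit (adjusted p = 0.117). Lef1, 588 against 221, did not pass (log2 difference 1.34, 95% interval 0.19 to 2.499, adjusted p = 0.209), though it did without library 2 of BCL11b-ID2- in the fit (adjusted p = 0.0247), nor did Axin2, 171 against 275 (-0.96, 95% interval -2.29 to 0.37). All gates of a stage share their libraries across these comparisons, so the comparisons are not independent of one another.

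**Figure D2:**
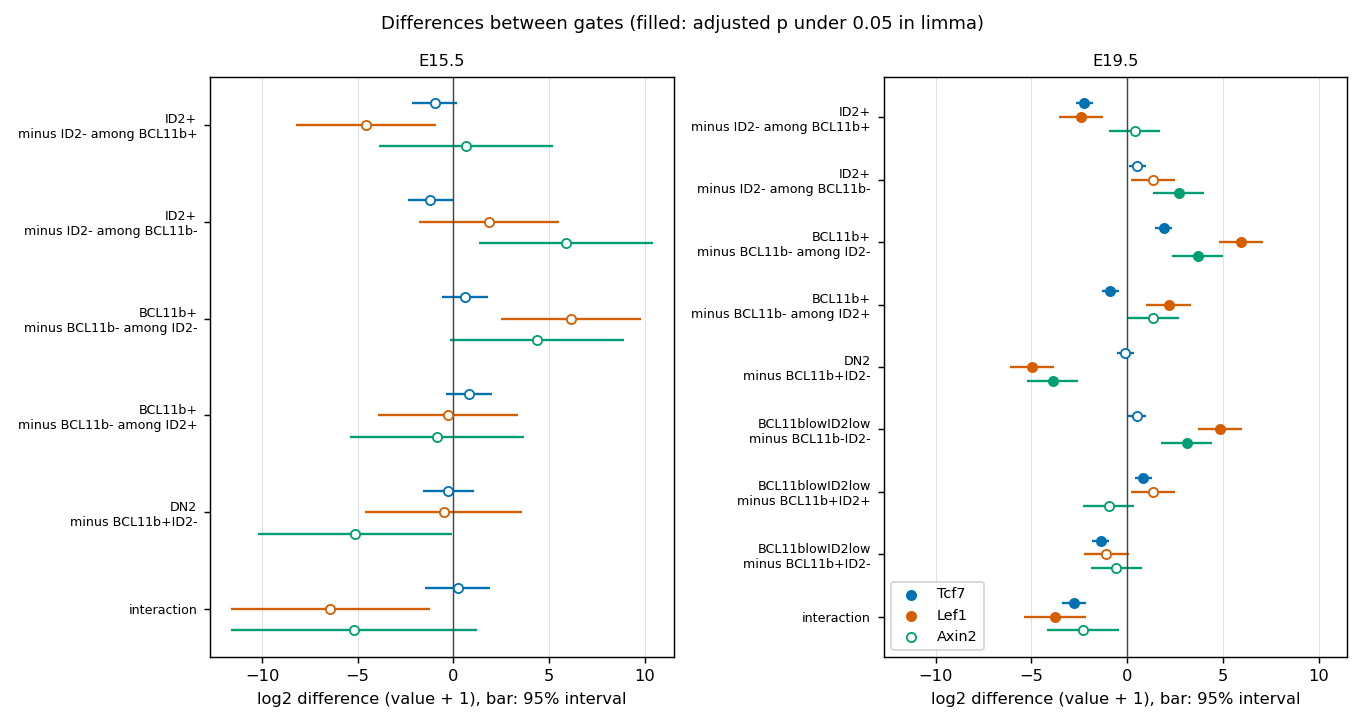
Log2 differences of Tcf7, Lef1 and Axin2 between gates at E15.5 (left) and E19.5 (right), with 95% intervals as bars and filled points for adjusted p under 0.05 in limma. At E19.5 16 of the 27 differences are filled, with Lef1 and Axin2 far below 0 for DN2 and Tcf7 near 0; at E15.5 none of the 18 is filled and the intervals are several times wider.

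Because Tcf7, Lef1 and Axin2 were counted in the same library, their ratio does not depend on how libraries were scaled. Levels were divided by the length of the merged exons (2625 bases for Tcf7, 8788 for Lef1 and 5506 for Axin2) to compare genes per kilobase. At E19.5 Tcf7 was the most abundant of the 3 in every library. In the BCL11b+ID2- gate it stood at 1439.8 ± 161 normalised counts per kilobase, beside 136 ± 19.9 for Lef1 and 38.0 ± 14.98 for Axin2. Lef1 came to 10.45, 8.93 and 8.92% of Tcf7 per kilobase in that gate and to 7.95, 7.62 and 9.34% in BCL11b+ID2+. The ranges of these gates touch, although both genes were lower in BCL11b+ID2+, so the 2 transcripts were lower by similar factors. In BCL11blowID2low libraries Lef1 was 16.3, 7.60 and 12.8% of Tcf7. It was 0.255 to 0.371% in DN2 and 0.115 to 1.24% in the BCL11b- gates.

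Axin2 relative to Tcf7 gave another order. It was 19.2, 14.8 and 13.7% of Tcf7 per kilobase in the BCL11b+ID2+ libraries, above every other library of E19.5. It was 1.299, 6.12 and 11.1% in BCL11blowID2low, 2.09, 3.88 and 4.48% in BCL11b-ID2+, and 3.78, 2.07 and 2.05% in BCL11b+ID2-. In DN2 it was 0.323, 0.236 and 0.0587%, and in BCL11b-ID2-, a gate with low Tcf7, 0.363, 0.697 and 1.32%. Tcf7 is the denominator of these shares, so a low Tcf7 raises them. They are given as a description, with no test.

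**Figure D3:**
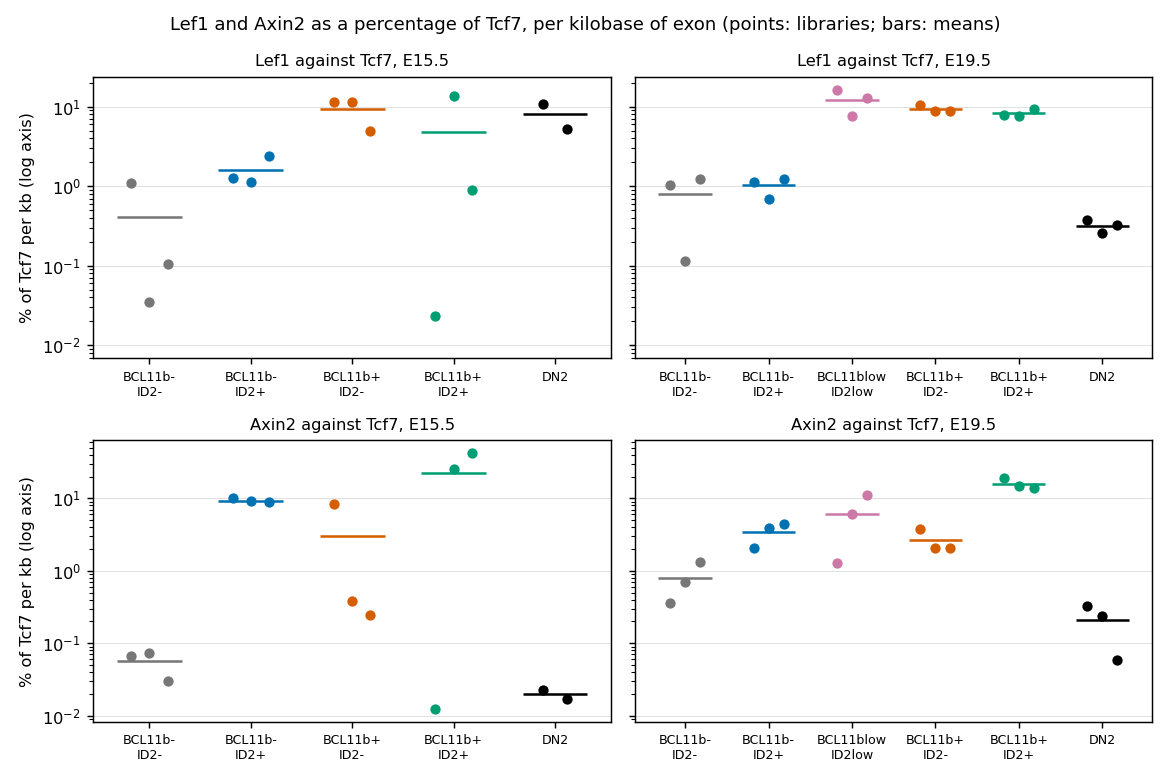
Lef1 (top) and Axin2 (bottom) as a percentage of Tcf7 per kilobase of merged exon (log axis) at E15.5 (left) and E19.5 (right); points are libraries and bars are arithmetic means. At E19.5 the BCL11b+ID2+ libraries have the highest Axin2 share, 13.7 to 19.2%, and the DN2 libraries the lowest Axin2 share, 0.0587 to 0.323%.

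At E15.5 the same genes were detected in every library, with more scatter. Tcf7 libraries held 3894, 3614 and 7162 in the BCL11b+ID2- gate and 4268 and 3428 in DN2. BCL11b-ID2- libraries held 4051, 1714 and 4239, BCL11b+ID2+ libraries 3852, 1465 and 2294, and BCL11b-ID2+ libraries 1531, 1197 and 1319. Neighbours in that order of means all overlapped, and BCL11b-ID2+ had the lowest Tcf7 (1349 ± 169, n = 3), below all libraries of BCL11b+ID2-, DN2 and BCL11b-ID2-. Among BCL11b+ cells the Tcf7 difference of ID2+ from ID2- was -0.99 (log2, adjusted p = 0.521 in limma), and -1.34 (adjusted p = 0.402) without library 1 of BCL11b+ID2+. The difference between ID2+ and ID2- cells among BCL11b- cells, -1.20 (log2, 95% interval -2.39 to -0.01, adjusted p = 0.535 in limma), did not pass.

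Lef1 at E15.5 was high in all 3 BCL11b+ID2- libraries (1502, 1399 and 1184) and in DN2 (1547 and 597). It was 148.5, 2.0 and 14.8 in BCL11b-ID2- libraries, 65.5, 45.7 and 107 in BCL11b-ID2+, and 3.0, 662 and 68.7 in BCL11b+ID2+. The BCL11b+ID2- libraries lay above all 9 of the other DN1 libraries. Their log2 difference from BCL11b-ID2- cells was 6.14 ± 1.78 (24.7-fold in means) with adjusted p = 0.401 in limma. Against BCL11b+ID2+ cells, the difference of ID2+ from ID2- was -4.57 (95% interval -8.24 to -0.91, adjusted p = 0.269), and -2.66 without library 1 of BCL11b+ID2+.

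Axin2 at E15.5 was lowest in BCL11b-ID2- cells, with 5.7, 2.6 and 2.7, and in DN2, with 2.1 and 1.2. It was 320.5, 229.7 and 243 in BCL11b-ID2+, a gate in which the 3 libraries lay close together. The other gates were split, with 689.9, 29.4 and 36.4 in BCL11b+ID2- and 1.0, 775 and 2019 in BCL11b+ID2+. The ID2+ gate was 71.95-fold above the ID2- gate among BCL11b- cells (log2 difference 5.87 ± 2.202, adjusted p = 0.343 in limma), with no overlap. Among BCL11b+ cells the log2 difference was 0.67 (95% interval -3.87 to 5.20), and 3.76 without library 1 of BCL11b+ID2+. It was negative without library 2 of BCL11b+ID2- (-0.14) or library 2 or 3 of BCL11b+ID2+ (-0.54 and -1.23).

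None of the 18 E15.5 differences of the 3 genes passed in limma: 0 had an adjusted p under 0.05, 6 had an unadjusted p under 0.05, edgeR called 0 and DESeq2 called 4 on the recovered reads. Of all 10289 genes, 662 (interaction) to 1285 (ID2 among BCL11b+ cells) had an unadjusted p under 0.05 in limma in a single comparison. The shares of all genes called by edgeR and DESeq2 are not given here, so their counts have no background. Few genes of any kind passed at that stage. For ID2 the share of all 10289 genes tested was 0.719% among BCL11b+ and 0.467% among BCL11b- cells. For BCL11b it was 0.00972% among ID2- and 0.0778% among ID2+ cells, for DN2 0% and for the interaction 0%. In the F-test for any difference among gates, 1.52% of all genes passed, and 1502 of the 10289 had an unadjusted p under 0.05. The test passed for 0 of the 3 genes, with 3 unadjusted p under 0.05, 0 calls by edgeR and 2 by DESeq2. The adjusted p in limma was 0.334 for Tcf7, 0.175 for Lef1 and 0.264 for Axin2. Without library 1 of BCL11b+ID2+ those adjusted p were 0.291, 0.12 and 0.0522. The E15.5 comparisons of BCL11b+ID2+ with BCL11b-ID2+ cells turned with library 1 of BCL11b+ID2+: the log2 difference was -0.29 for Lef1 and -0.84 for Axin2 with it, and 1.63 and 2.25 without it, while that of Tcf7 was 0.81 and 0.45. The Lef1 value also turned, to 0.03, without library 3 of BCL11b-ID2+. The 95% intervals with all libraries ran from -3.95 to 3.38 for Lef1 and from -5.38 to 3.69 for Axin2, so these data do not fix a direction.

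The other genes of the Wnt pathway were read from 5 lists holding 81 genes, chosen for their roles. At E19.5 65 of them were in the table and 41 passed the filter on low values. Over the 9 comparisons, 54 of 369 tests of these genes passed in limma (42 in edgeR and 54 in DESeq2), in either direction. Of all genes tested, 4.43% to 16.2% passed in a single one of these comparisons. At E15.5 0 of 180 tests passed in limma (21 at an unadjusted p under 0.05, 0 in edgeR and 18 in DESeq2), over 30 genes that could be tested of 49 in the table. Of all 10289 genes of that stage, 662 to 1285 had an unadjusted p under 0.05 in limma in a single comparison. For edgeR and DESeq2 the shares of all genes are not given here at either stage.

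Among the 13 other TCF/LEF family members and co-factors, 10 could be tested at E19.5. Tcf7l2, the gene of the related factor TCF4, had a pattern of its own. It was 248, 148 and 119 in BCL11b-ID2- libraries and 5.39, 0.77 and 20.1 in BCL11b-ID2+, a fall with ID2 of -4.73 ± 1.02 (log2, adjusted p = 0.00187 in limma). Among BCL11b+ cells of E19.5 it was 123, 34.3 and 114 in the ID2+ gate and 27.8, 50.3 and 60.9 in the ID2- gate, and did not pass (adjusted p = 0.739). The interaction was 5.55 ± 1.44 (adjusted p = 0.0157 in limma), and 4.64 (adjusted p = 0.0518) without library 2 of BCL11b-ID2+. At E15.5 both ID2- gates of DN1 held more, 266, 277 and 403 in BCL11b-ID2- and 72.1, 209.8 and 169 in BCL11b+ID2-, beside 0, 0 and 24.0 in BCL11b-ID2+ and 0, 0.56 and 1.64 in BCL11b+ID2+, although neither difference passed (adjusted p = 0.148 among BCL11b- and 0.13 among BCL11b+ cells in limma). Bcl9, which bridges beta-catenin to its co-activators, fell with ID2 among BCL11b- cells from 178 to 13.4 (adjusted p = 1.97e-05 in limma) and rose with BCL11b among ID2+ cells to 82.6 (adjusted p = 0.0013). Tle3, a Groucho-type co-repressor that binds TCF/LEF factors, rose with ID2 among BCL11b- cells, from 333 to 865 (adjusted p = 0.00126). Beta-catenin itself, Ctnnb1, did not pass in any E19.5 comparison, with gate means of 336 to 606.

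Of this list, 4 of 10 genes passed with ID2 among BCL11b- cells, 1 higher and 3 lower (median log2 difference -0.02, beside -0.01 for all genes, of which 15.9% passed). Tle3 was the higher one, and Tcf7l2, Bcl9 and the co-repressor Tle1 the lower ones. The Tle1 call ended on leaving out any 1 of the 6 libraries compared, for example library 4 of BCL11b-ID2- (adjusted p = 0.0515 in limma) or library 1 (0.0827). With BCL11b among ID2- cells 2 of 10 passed (14.9% of all genes), both higher, Aes, another co-repressor of the family, and Tle3. The Tle3 call ended without library 2 or 4 of BCL11b-ID2- (adjusted p = 0.0729 and 0.105 in limma) or library 2 of BCL11b+ID2- (0.0621). With BCL11b among ID2+ cells 3 of 10 passed (6.03% of all genes), Bcl9 and Tcf7l2 higher and Tle3 lower. There the Tcf7l2 call ended without library 1 or 2 of BCL11b-ID2+ (adjusted p = 0.0758 and 0.212 in limma) or library 1 or 4 of BCL11b+ID2+ (0.123 and 0.125). The Tle3 call ended on leaving out any 1 of 7 libraries, with an adjusted p of 0.264 in limma without library 2 of BCL11b-ID2+.

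Few Wnt ligands reached a level that could be tested. Of 19 listed, 9 were in the E19.5 table and 4 could be tested, and at E15.5 0 of the 6 in the table passed the filter. Wnt8b was 288, 50.3 and 75.6 in BCL11b+ID2- libraries, 96.3, 21.2 and 1.61 in BCL11blowID2low, and 0 in all libraries of both BCL11b- gates. It rose with BCL11b among ID2- cells (adjusted p = 0.000195 in limma) and fell with ID2 among BCL11b+ cells (adjusted p = 0.00141) and in DN2 (adjusted p = 0.000963). With ID2 among BCL11b- cells 2 of 4 ligands passed, both higher, beside 15.9% of all genes. Wnt9a was 3.7, 0 and 0 in BCL11b-ID2- libraries, 14.4, 13.1 and 21.3 in BCL11b-ID2+ (adjusted p = 0.00919 in limma) and 0 in the other 12 libraries, so that it also fell with BCL11b among ID2+ cells (adjusted p = 0.00373). Wnt9a met the filter on low values only through the BCL11b-ID2+ gate, where it is high. That choice favoured both of its calls and the count of 2 of 4, which are given as a description. Wnt10b was 1.2, 0 and 0 in BCL11b-ID2- and 5.4, 40.7 and 17.7 in BCL11b-ID2+ (adjusted p = 0.0442). The rise of Wnt9a ended without library 2 or 4 of BCL11b-ID2- (adjusted p = 0.0556 and 0.0541 in limma) and that of Wnt10b without library 1, 2 or 4 (0.0639, 0.127 and 0.123), and neither edgeR (0.206 and 0.102) nor DESeq2 (0.512 and 0.0707) called these rises. The fall of Wnt9a was not called by edgeR (0.115). At E15.5 Wnt8b was read in 1 BCL11b+ID2- library, at 68.0, and at most 0.66 in the others. Cells outside the sorted gates were not analysed here.

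Of 18 receptors and co-receptors, 7 could be tested. With ID2 among BCL11b- cells 5 of 7 passed, where 15.9% of all genes did, 1 higher and 4 lower (median log2 difference -1.94, beside -0.01 for all genes). The higher one was Fzd5, and the lower ones were Fzd3, Fzd7, Lrp5 and Lrp6. The calls of Fzd5, Fzd7 and Lrp6 each ended on leaving out any 1 of 4 of the 6 libraries, with a highest adjusted p in limma of 0.0852 for Fzd5 (library 2 of BCL11b-ID2-), 0.1397 for Fzd7 (library 1 of BCL11b-ID2+) and 0.0806 for Lrp6 (library 4 of BCL11b-ID2-). Fzd7 was also not called by edgeR (adjusted p = 0.0783). Fzd3, a Frizzled receptor, was 25.6, 17.4 and 19.2 in BCL11b-ID2- libraries and 0 in all 3 BCL11b-ID2+ libraries (adjusted p = 0.00157 in limma), and it was also 0 in all libraries of BCL11b+ID2+ and BCL11blowID2low. Lrp5, a co-receptor, fell from 147 to 32.1 (adjusted p = 0.00486). Ryk, a Wnt co-receptor, rose with BCL11b among ID2+ cells from 5.08 to 61.2 (adjusted p = 0.0332), a call that ended on leaving out any 1 of 5 of the 6 libraries, with 0.185 without library 1 of BCL11b-ID2+. This rise of Ryk was not called by edgeR (adjusted p = 0.125).

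Of 13 cytoplasmic transducers and destruction-complex genes, 12 could be tested and at most 2 passed in any comparison of gates. Csnk1e, a casein kinase, fell with ID2 among BCL11b- cells from 139 to 29.5 (adjusted p = 0.0109 in limma), and in BCL11blowID2low, at 17.7, it was lower than in BCL11b-ID2- (0.0122) and BCL11b+ID2- (0.0248). The first of these calls ended without library 1 of BCL11b-ID2- (0.0642) or library 2 of BCL11b-ID2+ (0.0981), and the second without library 1 of BCL11b-ID2- (0.0691). The last ended without library 2 of BCL11blowID2low (0.0821) or library 1 or 2 of BCL11b+ID2- (0.1297 and 0.0533). Its relative Csnk1a1 fell with ID2 among BCL11b+ cells from 1611 to 1117 (adjusted p = 0.0182), and not without library 4 of BCL11b+ID2- (0.0626) or library 1 of BCL11b+ID2+ (0.0688). This fall of Csnk1a1 was not called by edgeR (adjusted p = 0.0581). Csnk1d fell in DN2 from 417 to 209 (0.0156), and not without library 1 or 4 of BCL11b+ID2- (0.0774 and 0.0599) or library 4 of DN2 (0.0667). Dvl2, a Dishevelled gene, was lower in BCL11blowID2low than in BCL11b-ID2-, 13.8 against 66.4 (0.0193), and did not pass without library 2 or 4 of BCL11b-ID2- (0.0794 and 0.082) or library 2 of BCL11blowID2low (0.0822).

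Among inhibitors and feedback targets, the list to which Axin2 is closest in role, 8 of 18 could be tested at E19.5. Rnf43, a ubiquitin ligase that removes Frizzled from the cell surface and is itself a target of the pathway, was 36.6, 1.45 and 3.84 in BCL11b-ID2- libraries and 0, 0.67 and 1.45 in DN2. It was 178, 295 and 244 in BCL11b-ID2+, 232, 332 and 349 in BCL11blowID2low, 22.6, 107 and 95.9 in BCL11b+ID2-, and 87.2, 126 and 148 in BCL11b+ID2+. As with Axin2, the 2 gates with the lowest Rnf43 were BCL11b-ID2- and DN2. It rose with ID2 among BCL11b- cells (log2 difference 4.94 ± 0.76, adjusted p = 5.45e-05 in limma) and in BCL11blowID2low over BCL11b-ID2- cells (5.30 ± 0.76, adjusted p = 2.79e-05), and it fell in DN2 (adjusted p = 3.00e-05). Axin2 passed in the same direction in these 3 comparisons, of which the first 2 share the BCL11b-ID2- libraries.

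Axin2 and Rnf43 parted in their order. Axin2 had its highest mean in BCL11b+ID2+ cells and Rnf43 in BCL11blowID2low cells. At E15.5 Rnf43 was 1169.5, 214.5 and 201 in BCL11b-ID2+ and 67.0, 107 and 1842 in BCL11b+ID2+, against at most 19.8 in all 8 libraries of the other gates. None of the E15.5 differences of Rnf43 passed in limma (adjusted p = 0.168 for ID2 among BCL11b+ cells and 0.19 among BCL11b- cells). Tnfrsf19, a receptor of the TNF family and a known Wnt target, was 342, 233 and 199.8 in BCL11b+ID2+ libraries at E19.5 and at most 14.6 in all 15 others. It rose with ID2 among BCL11b+ cells (adjusted p = 0.000222 in limma), a call not made by DESeq2 (adjusted p = 0.0922). The BCL11b+ID2+ libraries, where Tnfrsf19 is high, met the filter on low values by themselves. That choice may have favoured this call, which is given as a description. Znrf3, the paralogue of Rnf43, had gate means of 86.0 to 187 at E19.5 and did not pass in limma (adjusted p = 0.239 for any difference among gates).

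Calls on the other members of this list ended on leaving out single libraries. Nkd2, a Dishevelled inhibitor, rose with ID2 among BCL11b- cells from 0.241 to 13.6 (adjusted p = 0.0226 in limma), and not without library 1 or 4 of BCL11b-ID2- (0.0737 and 0.0743). Neither edgeR (adjusted p = 0.0608) nor DESeq2 (0.0717) called this rise of Nkd2. Kremen1, a Dickkopf receptor, rose with BCL11b among ID2- cells from 32.5 to 141 (0.0123), and not without library 4 of BCL11b-ID2- (0.0726). Nkd1 and Ctnnbip1, an inhibitor of beta-catenin binding, were lower in BCL11blowID2low than in BCL11b+ID2-, 0.269 against 16.8 (adjusted p = 0.043) and 0 against 19.7 (0.0232). The Nkd1 call ended on leaving out any 1 of the 6 libraries compared, with 0.1301 without library 1 of BCL11b+ID2-, and that of Ctnnbip1 any 1 of 5 of them, with 0.0721 without that library. Both calls were also absent in edgeR (adjusted p = 0.101 for Nkd1 and 0.0828 for Ctnnbip1).

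**Figure D4:**
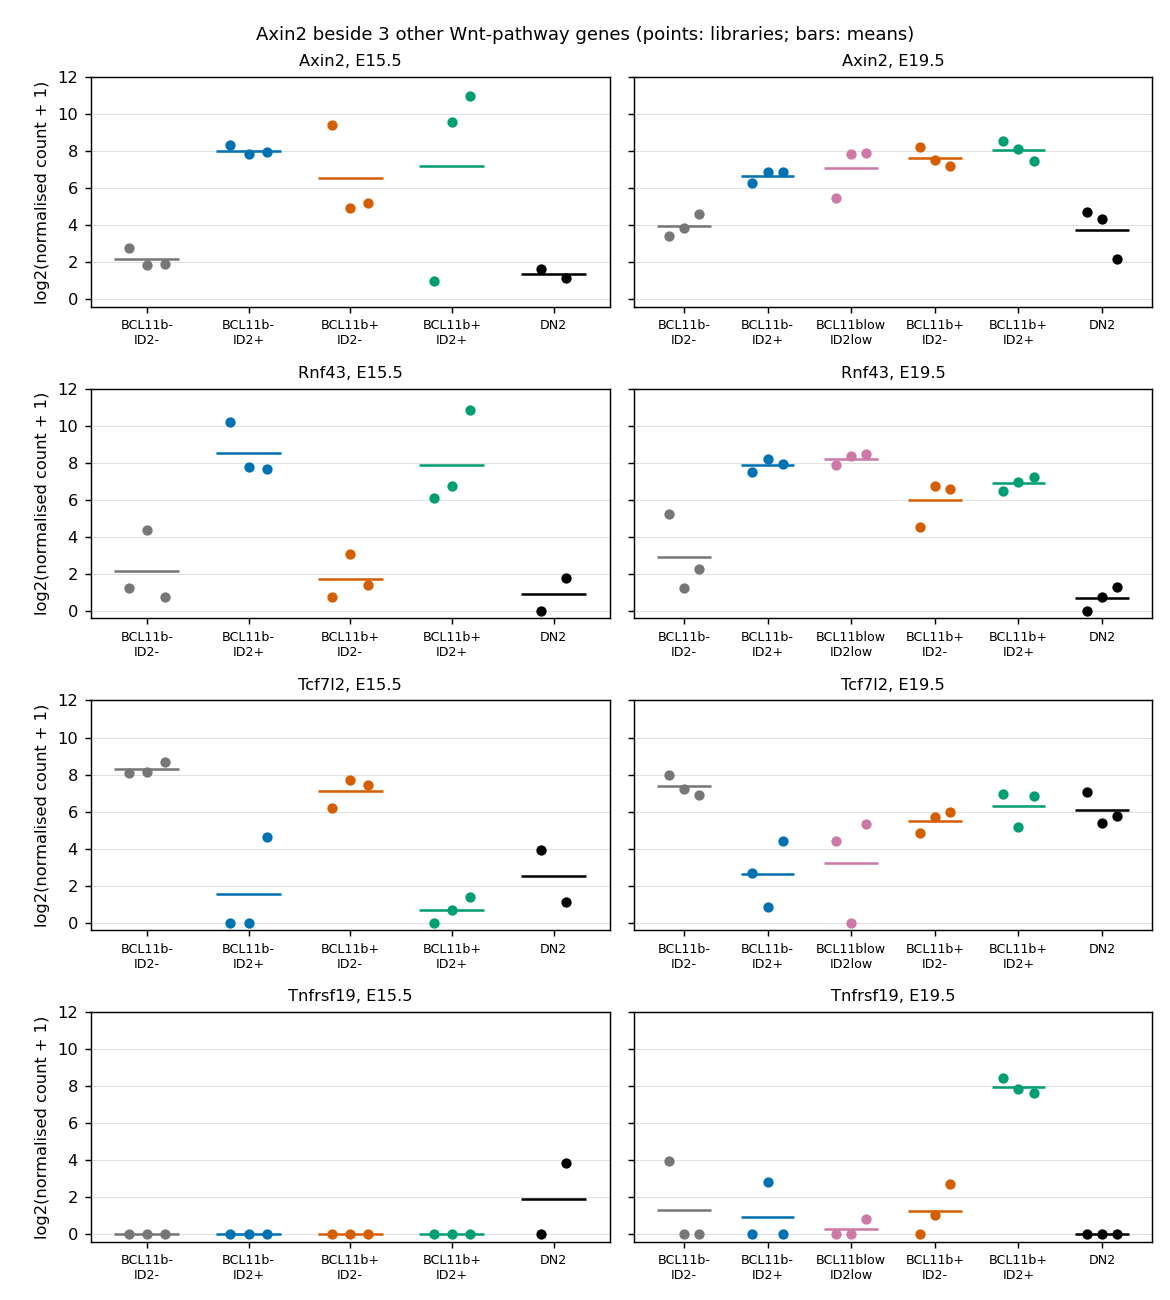
Log2(normalised count + 1) of Axin2, Rnf43, Tcf7l2 and Tnfrsf19 in each library at E15.5 (left) and E19.5 (right), by gate; points are libraries and bars are means of the plotted log values. Rnf43, like Axin2, is lowest in BCL11b-ID2- and DN2 cells at E19.5, Tcf7l2 is highest in BCL11b-ID2- cells, and Tnfrsf19 is above 7 only in the 3 BCL11b+ID2+ libraries of E19.5.

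T-lineage and innate lymphoid genes were read as a frame for these levels. The T-lineage list holds Bcl11b and the innate lymphoid list holds Id2, the factors the gates were sorted on. Bcl11b higher with BCL11b and Id2 higher with ID2 therefore follow from the sort, although the counts below include them. Gata3 stands in both lists and is counted in each where it passed, so the counts of the lists are not independent. With BCL11b among ID2- cells at E19.5, where Tcf7, Lef1 and Axin2 all rose, 13 of 16 T-lineage genes passed, 11 higher and 2 lower, and 7 of 11 early innate lymphoid regulators passed, all higher (medians of the log2 differences 3.36 and 3.20, beside -0.05 for all genes, of which 14.9% passed). With ID2 among BCL11b+ cells, where Tcf7 and Lef1 fell, 9 of 16 T-lineage genes passed, 2 higher (Il2ra and Il7r) and 7 lower, among them Cd3e, a T-cell receptor subunit, where 8.73% of all genes passed. There 3 of 11 innate lymphoid regulators passed, Id2, the sorted factor, higher, and Tox and Tox2 lower (adjusted p = 0.013 and 0.041 in limma). The Tox call ended without library 1 of BCL11b+ID2- (0.0783) or library 4 of BCL11b+ID2+ (0.124), and the Tox2 call on leaving out any 1 of the 6 libraries, with 0.164 without library 2 of BCL11b+ID2-. In DN2, where Lef1 and Axin2 fell and Tcf7 did not, 12 of 16 T-lineage genes passed, 5 higher (Il2ra, Rag2, Rag1, Lck and Ptcra) and 7 lower, and 7 of 11 innate lymphoid regulators passed, all lower, Rora, Ets1 and Gata3 among them, beside 16.2% of all genes.

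The genes whose log2 values over the 18 E19.5 libraries were most like each member's were taken among 4611 genes with a mean of at least 100. For Lef1 they were Ablim1, an actin-binding protein (Pearson r = 0.952), Lcp2, the T-cell receptor adaptor SLP-76 (0.934), the gamma-chain segment Trgv2 (0.915), the chemokine receptor gene Ccr4 (0.913) and the kinase gene Camk4 (0.913). For Axin2 they were Prkd2 (0.956), Aebp2 (0.932), Zbp1 (0.925) and Sirt2 (0.92). For Tcf7 they were Rhoh (0.853), a GTPase of lymphocytes, Eaf1 (0.828), C1galt1 (0.821), Aqp11 (0.797) and Tcf12 (0.789), an E protein. Among the 3 genes themselves, r was 0.694 for Lef1 with Axin2, 0.265 for Tcf7 with Lef1 and -0.15 for Tcf7 with Axin2. The libraries of a gate are not independent points, so these values mostly describe differences between 6 gates.

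At E15.5, over 14 libraries and 5475 genes, the genes most like Tcf7 were Marcks, Cd24a, Anp32e, Tcrg-C2 and Hsph1, with r from 0.819 to 0.884. Those most like Lef1 were Apool, Elk4, Bmp2k, Rraga and Tcrg-C3 (0.747 to 0.832), and those most like Axin2 were Clcn3, Il2rg, Suds3, Dele1 and Clock (0.781 to 0.801). No gene stood in the lists of both stages. Genes that overlap the members on either strand had low values (A630014C17Rik and Gm26551 at Tcf7, Gm42449 and Gm43352 at Lef1, Gm11670 at Axin2), with a highest gate mean of 45.5 for Gm42449 in BCL11blowID2low cells. Because the strand kept by the libraries is not stated in the labels, reads of a gene and its antisense partner cannot be told apart.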

How the data were processed

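Bulk RNA-seq was measured in 14 libraries of E15.5 and 18 of E19.5. The deposited signal is a read count per gene divided by a DESeq size factor per library, computed by the authors within each stage's table, per the labels. The submitters' processing notes name Trim Galore 0.50, STAR 2.6.0a, DESeq2 1.18.1 and GRCm38. The counter and annotation were not stated. Low values were whole multiples of 1 step per library, so reads were recovered, and 100% of values came out whole within 0.01 reads.

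The test took the genes that reached 10 in 3 or more of a stage's libraries, and ran on log2(value + 1) with limma 3.58.1 (trend, robust; R 4.3.3), with all gates of a stage in 1 fit. Fold changes in the text are ratios of arithmetic means, and log2 differences come from the fit, whose pseudocount of 1 understates changes of low genes. Adjusted p-values are Benjamini-Hochberg over all genes tested in a comparison, with a threshold of 0.05, and intervals are at 95% without adjustment. Alternatives were a pseudocount of 8, no filter, TMM scaling, edgeR 4.0.16 (quasi-likelihood) and DESeq2 1.42.0 on recovered reads, only the gates compared, the replicate number as a block, and leaving out each library. A scaling by reads outside mitochondrial genes was added after seeing the data. The limma fit was tested on simulated counts with known changes, for ID2 among BCL11b+ cells. At E15.5 it called 1 of 100 genes changed 4-fold and 19 of 100 changed 16-fold. At E19.5 it called 87 and 100 of 100, and 11 unchanged genes. A difference that did not pass at E15.5 is therefore not shown to be absent.

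The members and gene lists were chosen with earlier results of these data known. From each list, the rule was to name genes that passed in a comparison, at most 4 per direction by smallest adjusted p. It is kept for the Wnt lists, though not every comparison that a named gene passed is given, and T-lineage and innate lymphoid genes are mostly given as counts. For each member the rule named the 5 genes with the highest Pearson r, among genes with a mean of at least 100, leaving out predicted, mitochondrial and ribosomal protein genes. 1 gene of these is not reported here. A few more list genes (Ctnnb1, Znrf3, Il7r and the DN2 genes) were named after their values were seen. Marker lists of erythroid, B-lineage, mast cell and stromal genes were also summed, and some differed between gates of E19.5. Mast cell markers summed to 610 to 1008 in BCL11b+ID2-, with Cma1, Tpsb2, Ms4a2 and Fcer1a at 0, and to 14.5 to 114 in BCL11b+ID2+. Epithelial and stromal markers summed to 995 to 1380 in BCL11b-ID2- and to 161 to 260 in BCL11b-ID2+. The part of such cells in any difference, those of the Wnt genes included, was not tested.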

Additional observations from a re-analysis of the deposited data

Results flagged for a closer look

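The ID2 difference was not the same in BCL11b+ and BCL11b- cells of E19.5 for 2 genes, by a test of the difference between the differences. For Tcf7 the ID2 difference among BCL11b+ cells minus that among BCL11b- cells was -2.78 on the log2 scale, made of -2.24 among BCL11b+ cells and 0.54 among BCL11b- cells (adjusted p = 2.92e-06 in limma). For Lef1 it was -3.76, made of -2.43 and 1.34 (adjusted p = 0.00326 in limma), and without library 2 of BCL11b-ID2- it was -2.73, with 0.30 among BCL11b- cells, and still passed. Groups of 2 or 3 libraries are too small for a search by rule for single libraries far from their group, so none was made. The E15.5 libraries described above as apart from their fellows were picked by reading their values.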

How the results depend on the processing

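At E15.5, 133 of 144 values under other settings kept their direction and side of the threshold, 6 passed and 5 turned. DESeq2 on recovered reads passed Axin2 for ID2 among BCL11b- cells (6.17), for BCL11b among ID2- cells (6.11) and for DN2 (-7.24), Lef1 for BCL11b among ID2- cells (4.63), and the test among gates for Lef1 and Axin2 (adjusted p = 0.0324 and 0.000627). BCL11b among ID2+ cells turned for Lef1 with a pseudocount of 8 (0.10), edgeR (1.87) and DESeq2 (1.75), and for Axin2 with edgeR (1.74) and DESeq2 (1.82). Leaving out 1 library kept 284 of 294 values. The ranges of those that turned were -1.23 to 3.76 for Axin2 and ID2 among BCL11b+ cells, -2.06 to 1.63 for Lef1 and -2.74 to 2.25 for Axin2 with BCL11b among ID2+ cells, -0.47 to 0.028 for Tcf7 and -1.18 to 0.19 for Lef1 in DN2, and -0.14 to 0.64 for the Tcf7 interaction.

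At E19.5, 199 of 207 values were kept, 7 passed and 1 no longer passed. With only the gates compared, Axin2 passed for BCL11b among ID2+ cells (1.37) and for the interaction (-2.31), Lef1 passed for BCL11blowID2low over BCL11b+ID2+ (1.34), and Tcf7 no longer passed there (0.85). DESeq2 passed the same Lef1 difference (1.41) and the Axin2 interaction (-2.32). Scaling by reads outside mitochondrial genes, chosen after seeing the data, turned Tcf7 in DN2 to 0.0094. Leaving out 1 library kept 524 of 540 values. Ranges were 0.40 to 0.72 for Tcf7 and 0.30 to 1.94 for Lef1 with ID2 among BCL11b- cells, -0.996 to -0.67 and 1.90 to 2.39 with BCL11b among ID2+ cells, -0.19 to 0.023 for Tcf7 in DN2, 0.35 to 0.76 for Tcf7 in BCL11blowID2low over BCL11b-ID2-, 0.66 to 1.096 for Tcf7 and 1.03 to 1.52 for Lef1 over BCL11b+ID2+, and -0.98 to 0.24 for Axin2 over BCL11b+ID2-. The cause of these changes was not tested, and where a library or gate is left out the fit has fewer samples. Where DN2 of E15.5 kept 1 library, it was assumed to vary like the other gates.

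With the replicate block, Tcf7 passed at E19.5 for ID2 among BCL11b- cells (0.54, adjusted p = 0.00814 in limma) and for BCL11blowID2low over BCL11b-ID2- (0.52, adjusted p = 0.0118), and no other call on the 3 genes changed. Deviations of same-numbered libraries had correlations of -0.0458 to 0.0388 at E15.5 (0 of 26 pairs over 0.1). At E19.5 they were 0.00202 to 0.129, all positive (1 of 45 pairs over 0.1). The main fit did not pair libraries by number, and these values do not settle whether it should have. As a hint from the data, 17 of 18 libraries of E19.5 and 8 of 14 of E15.5 correlated best with their own number. At E19.5 the median was 0.0538 for same-numbered pairs and -0.0205 for the others. A shared origin of same-numbered libraries was not tested. Of the named list genes, 50 of 1127 values at E19.5 and 10 of 56 at E15.5 no longer passed under other settings, and 168 of 2514 and 29 of 98 without 1 library, and none turned. The E15.5 libraries of a gate spread widely, although they were the deeper ones.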
